A study of Mus musculus with 23 samples.

Results

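The 4 mouse Fc gamma receptors, their shared signalling chain, the 3 chains of complement C1q and the 2 G protein coupled receptors for complement fragments C3a and C5a were followed through wound repair. These 10 genes (Fcgr1, Fcgr2b, Fcgr3, Fcgr4, Fcer1g, C1qa, C1qb, C1qc, C3ar1 and C5ar1) were taken by symbol from a count table of 56379 genes, and all 10 were present and passed the filter on low counts. RNA was sequenced from day 0 skin and from skin wounds of HTNF ki/ki Lepr db/db mice, aged 8 to 12 weeks. Lepr db/db mice lack a working leptin receptor and are obese and diabetic, with slow wound closure. On the back of each mouse, 4 wounds through the full skin were cut with a 6 mm punch, and an 8 mm punch later collected the tissue over a wound. Mice were injected under the skin with PBS, called control here, or with adalimumab, an antibody that blocks human TNF (20 mg per kg), with doses on days 0, 3, 7 and 10. All mice also received tramadol once, at 5 mg per kg. Both treatments were sampled on days 0, 3, 7 and 10, in 3 libraries a group except adalimumab day 10, with 2. Whether the day 0 tissue was taken before or after the first injection, and whether it was the skin removed by the first punch, is not stated in the labels.

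Fc gamma receptors bind the constant part of IgG and link antibody-coated material to phagocytes. Fcgr1, Fcgr3 and Fcgr4 are activating and signal through the ITAM of the chain encoded by Fcer1g, whereas Fcgr2b carries an inhibitory motif that recruits the phosphatase encoded by Inpp5d. C1q binds IgG in complexes and apoptotic cells, starts the classical complement pathway and is made in tissues largely by macrophages. The receptors encoded by C3ar1 and C5ar1 sense the fragments released when complement is cleaved and are found on myeloid cells.

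Total counts ran from 33080930 to 37494760 per library, and TMM scaling factors from 0.861 to 1.18. Levels are given as CPM, counts scaled to a common TMM-adjusted library size. Xist, the RNA of the silenced female X, was high in all 12 libraries from days 0 and 3, while the libraries from days 7 and 10 held Y-linked Ddx3y, except adalimumab day 7 replicate 3, which held Xist. The count columns of days 0 and 3 also follow another naming pattern than those of days 7 and 10. Sex, and whatever else differs between these sets of mice, therefore cannot be told apart from day in comparisons of days 7 or 10 with days 0 or 3. Some libraries stood apart in cell markers. The summed level of 6 keratinocyte markers was 10.31 CPM in adalimumab day 3 replicate 1 against 3882 and 5645 CPM in the other replicates, and that of 8 neutrophil markers was 2223 CPM in adalimumab day 3 replicate 2 against 201.5 and 505.1 CPM. In bulk tissue, fewer cells of a type and less RNA per cell cannot be told apart.

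The windows of 250 bases before the start sites are shown first, to describe which of the genes hold the short motif of a myeloid factor there. RefSeq (GRCm38.p6) gave a window for 9 of the 10 genes, all but C1qa. Both strands were searched for GAGGAA, the purine-rich core bound by the myeloid factor PU.1, and for its longer form GAGGAAGT, which contains the first. GAGGAA was found in 5 of 9 genes, against 23.25% of 32851 RefSeq promoter windows of the same length. The longer form was found in Fcgr4 and C1qc, against 2.441% of windows. Capitals mark the matches in the 5 windows below, written 5′ to 3′ on the strand of the gene, where a match on the opposite strand reads TTCCTC or ACTTCCTC. Their places are chr3:96293970-96294219 (minus strand) for Fcgr1, chr1:171059404-171059653 (minus) for the first of 2 start sites of Fcgr3, chr1:171018676-171018925 (plus) for Fcgr4, chr4:136886201-136886450 (minus) for C1qb and chr4:136892915-136893164 (minus) for C1qc.
Fcgr1: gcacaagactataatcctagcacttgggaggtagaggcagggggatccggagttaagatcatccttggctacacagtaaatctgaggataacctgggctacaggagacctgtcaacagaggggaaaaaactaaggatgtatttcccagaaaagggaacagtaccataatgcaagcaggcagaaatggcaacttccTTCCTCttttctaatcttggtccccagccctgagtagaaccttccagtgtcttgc
Fcgr3: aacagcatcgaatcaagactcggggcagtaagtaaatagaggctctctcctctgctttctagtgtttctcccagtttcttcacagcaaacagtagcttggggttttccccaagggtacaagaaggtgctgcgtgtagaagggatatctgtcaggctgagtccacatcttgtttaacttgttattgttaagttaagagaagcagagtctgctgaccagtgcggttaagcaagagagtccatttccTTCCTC
Fcgr4: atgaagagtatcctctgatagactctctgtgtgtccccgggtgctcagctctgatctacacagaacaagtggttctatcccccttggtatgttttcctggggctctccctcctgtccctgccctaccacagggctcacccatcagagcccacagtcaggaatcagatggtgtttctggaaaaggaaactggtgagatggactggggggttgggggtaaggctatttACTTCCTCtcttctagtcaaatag
C1qb: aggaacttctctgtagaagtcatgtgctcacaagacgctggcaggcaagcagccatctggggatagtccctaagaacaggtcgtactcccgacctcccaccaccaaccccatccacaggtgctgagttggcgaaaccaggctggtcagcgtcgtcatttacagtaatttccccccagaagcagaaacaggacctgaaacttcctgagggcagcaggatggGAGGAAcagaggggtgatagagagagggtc
C1qc: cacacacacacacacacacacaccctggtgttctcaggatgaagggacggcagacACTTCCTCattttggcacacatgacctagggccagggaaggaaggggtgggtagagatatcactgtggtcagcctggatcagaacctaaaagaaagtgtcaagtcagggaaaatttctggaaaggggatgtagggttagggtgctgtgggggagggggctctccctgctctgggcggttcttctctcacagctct

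The GAGGAA match began at -55 from the start site in Fcgr1, at -6 in Fcgr3, at -22 in Fcgr4, at -30 in C1qb and at -193 in C1qc. These letters were not in the windows of Fcgr2b, Fcer1g, C3ar1 and C5ar1. The 3 C1q genes are neighbours on chromosome 4, and Fcgr2b, Fcgr3, Fcgr4 and Fcer1g lie on chromosome 1. A match is a description of the sequence, and binding was not measured here. Genes with and without a match were both higher in the wounds, as given next, and a link between the motif and the levels was not tested.

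All 10 genes were higher in wounds than in day 0 skin on days 3, 7 and 10 in both treatments (edgeR quasi-likelihood test, Benjamini-Hochberg adjusted p under 0.05 over 23083 genes). In control mice the median log2 difference from day 0 was 3.42 on day 3, 2.49 on day 7 and 2.12 on day 10, where 17.5%, 16.4% and 16.2% of all tested genes were higher. In adalimumab mice the medians were 4.12, 3.35 and 3.30, with 11.9%, 14.6% and 9.02% of all genes higher. The median over all tested genes lay between -0.16 and -0.01 in these 6 comparisons. The comparisons of a treatment share its day 0 libraries and are not independent of one another. Leaving out adalimumab day 0 replicates 2 and 3, which had the highest scaling factors, left 6 of 10 genes called on day 3, 6 on day 7 and 3 on day 10. That choice was made after the data were seen, and the lone day 0 library is then assumed to vary like the other groups.

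**Figure D1:**
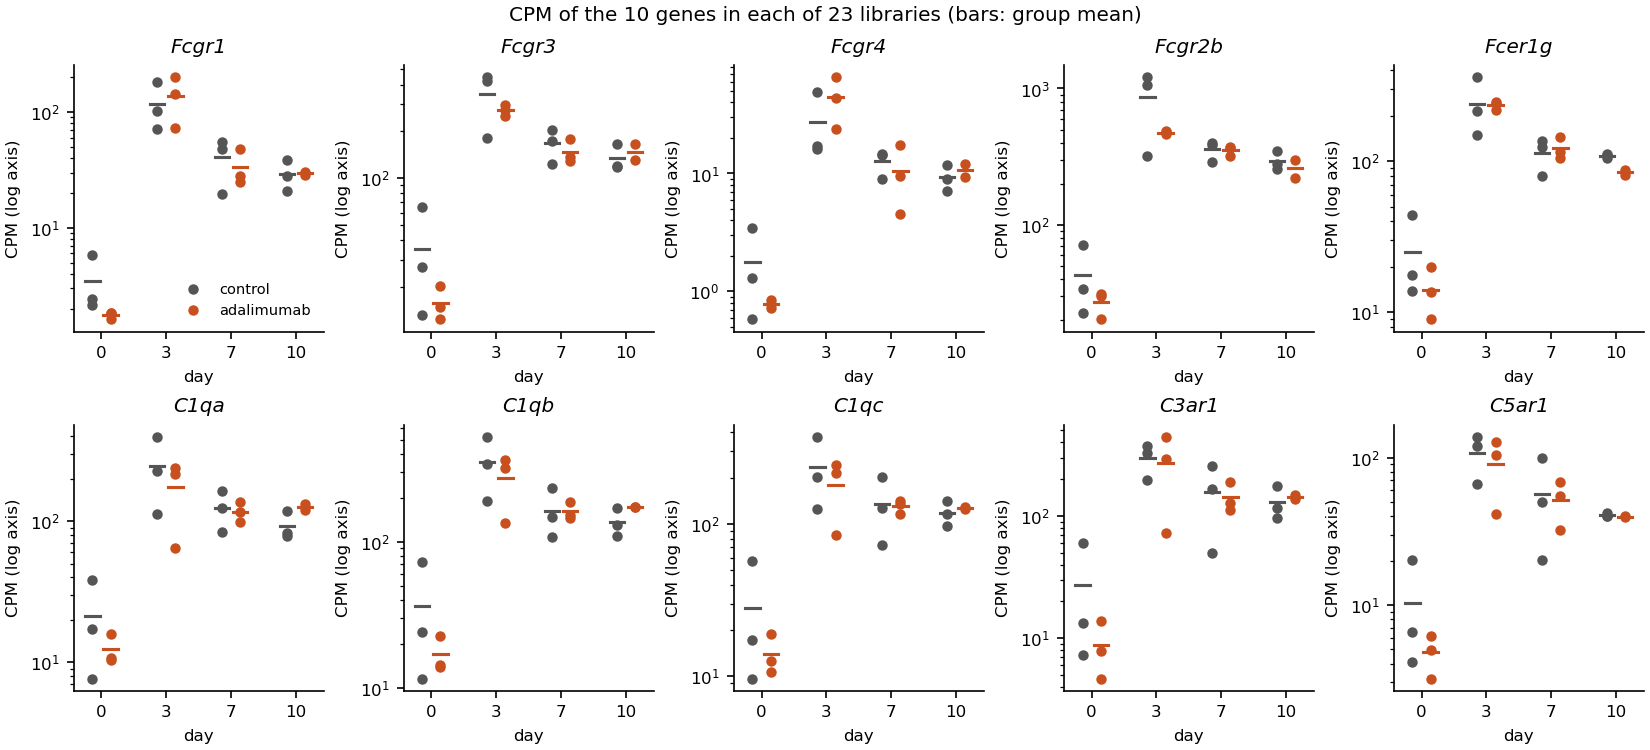
CPM (log axis) of each of the 10 genes in the 23 libraries, by day, with dark points for control and orange points for adalimumab and a short bar at each group's mean. By group mean every gene is lowest on day 0 and highest on day 3 in both treatments, and the points of both treatments overlap for all 10 genes on days 3 and 7.

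Fcgr1, the high-affinity IgG receptor of monocytes and macrophages, had the largest difference. In control skin it measured 2.40, 5.86 and 2.16 CPM on day 0 and 102, 72.0 and 182 CPM on day 3. In adalimumab mice it measured 1.84, 1.82 and 1.61 CPM on day 0 and 200, 72.7 and 142 CPM on day 3. Every day 3 library was thus above every day 0 library. The log2 difference was 5.09 ± 0.54 (SE) in control (adjusted p = 9.27e-06) and 6.30 ± 0.57 in adalimumab (adjusted p = 3.77e-06), which is 34.0-fold and 78.6-fold. By day 10 Fcgr1 stood at 28.3, 38.5 and 20.8 CPM in control and at 30.6 and 28.7 CPM in adalimumab, still apart from all day 0 libraries.

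Fcgr4, an activating receptor of mouse monocytes, macrophages and neutrophils, had the lowest level per length of the 10 in control wounds of day 3. It measured 1.30, 3.47 and 0.578 CPM in control on day 0 and 17.0, 16.1 and 49.0 CPM on day 3. Under adalimumab it went from 0.849, 0.780 and 0.717 CPM to 65.3, 23.9 and 44.0 CPM. The log2 difference was 3.94 ± 0.63 in control and 5.82 ± 0.70 in adalimumab, and the days did not overlap in either. Fcgr3, the low-affinity activating receptor, measured 26.7, 65.8 and 13.2 CPM in control on day 0 and 424, 180 and 445 CPM on day 3. In adalimumab mice Fcgr3 rose from 20.4, 14.8 and 12.4 CPM to 296, 276 and 253 CPM, a log2 difference of 4.12 ± 0.48 against 3.31 ± 0.46 in control. The 3 adalimumab libraries lay close together, whereas control day 3 replicate 2 was far below its group.

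Fcgr2b, the inhibitory receptor, rose with the activating ones. It measured 34.2, 71.0 and 22.8 CPM in control on day 0 and 1068, 319 and 1206 CPM on day 3, a log2 difference of 4.34 ± 0.45. In adalimumab mice it went from 30.2, 31.4 and 20.3 CPM to 461, 476 and 487 CPM, a log2 difference of 4.12 ± 0.45. Of 50-base windows along the transcripts, 4.38% in Fcgr2b and 9.58% in Fcgr3 also occur in another gene, including each other, so that a small part of their reads could be assigned either way. The other 8 genes held 0 shared windows. Fcer1g, which encodes the common gamma chain, measured 17.6, 44.0 and 13.9 CPM in control on day 0 and 214, 149 and 359 CPM on day 3. Under adalimumab Fcer1g rose from 19.8, 13.6 and 8.95 CPM to 247, 244 and 217 CPM. Its log2 differences were 3.26 ± 0.41 and 4.06 ± 0.42, with no overlap between the days.

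**Figure D2:**
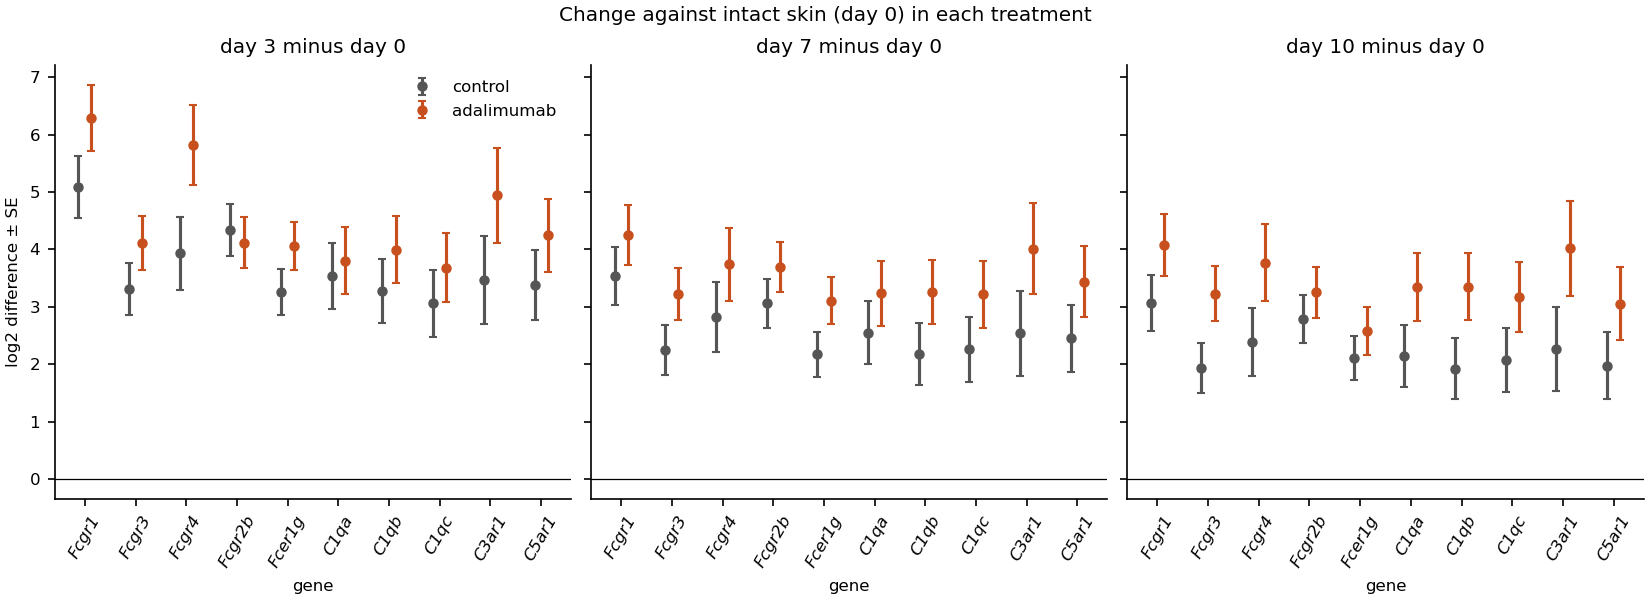
Log2 difference from day 0 with its SE for each gene on days 3, 7 and 10, in control (dark) and adalimumab (orange). All 60 values lie above 0, Fcgr1 is highest on day 3 in both treatments (5.09 and 6.30), and C1qc is lowest on day 3 (3.06 and 3.68).

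The 3 C1q genes rose in parallel. C1qa measured 17.2, 38.5 and 7.64 CPM in control on day 0 and 227, 112 and 397 CPM on day 3. C1qb measured 24.2, 72.6 and 11.5 CPM, then 340, 189 and 524 CPM. C1qc measured 17.4, 57.3 and 9.65 CPM, then 204, 126 and 373 CPM. For each chain, control day 0 replicate 2 was the highest day 0 library and control day 3 replicate 2 the lowest wound, yet the days did not overlap. The log2 differences were 3.54 ± 0.57 for C1qa, 3.28 ± 0.56 for C1qb and 3.06 ± 0.58 for C1qc.

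In adalimumab mice C1qa rose from 16.0, 10.5 and 10.7 CPM to 239, 64.6 and 216 CPM, a log2 difference of 3.81 ± 0.58. C1qb went from 22.6, 13.9 and 14.4 CPM to 360, 134 and 319 CPM (4.00 ± 0.58), and C1qc from 18.9, 10.6 and 12.6 CPM to 242, 84.4 and 216 CPM (3.68 ± 0.60). Replicate 2 was the low library of day 3 for all 3 chains. The same library was not low for Fcgr2b, Fcgr3 and Fcer1g, and it had the high neutrophil marker sum given above; the part of those cells in this pattern was not tested.

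C3ar1, the C3a receptor, measured 13.4, 60.6 and 7.28 CPM in control on day 0 and 327, 197 and 374 CPM on day 3 (log2 difference 3.47 ± 0.77). Under adalimumab it went from 13.9, 7.83 and 4.67 CPM to 445, 73.0 and 294 CPM (4.94 ± 0.83). C5ar1, the C5a receptor that draws in neutrophils and monocytes, measured 6.61, 20.3 and 4.14 CPM in control on day 0 and 119, 66.1 and 139 CPM on day 3 (3.38 ± 0.61). Under adalimumab C5ar1 went from 6.19, 4.97 and 3.17 CPM to 127, 41.4 and 104 CPM (4.25 ± 0.64). Both receptors were lowest on day 3 in replicate 2 of each treatment. They were the 2 genes whose control libraries of day 7 and day 0 overlapped, while 24.5% of all tested genes were higher on day 7 without overlap. On day 7 control C3ar1 measured 256, 49.7 and 166 CPM and C5ar1 99.7, 20.3 and 50.0 CPM, with replicate 2 below the highest day 0 library. The C3ar1 call in control on day 7 (2.54 ± 0.74, adjusted p = 0.0144) ended without control day 0 replicate 1 (0.0629), day 0 replicate 3 (0.0504) or day 7 replicate 1 (0.0546), and when only the 2 groups were fitted (0.0698). On day 10 the control call of C3ar1 (2.26, adjusted p = 0.0241) ended without day 0 replicate 1, day 0 replicate 3 or day 10 replicate 2 (0.0905, 0.0765 and 0.0698), and that of C5ar1 (1.98, adjusted p = 0.0144) without day 0 replicate 1 or 3 (0.0600 and 0.0524).

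On days 0 and 3 the replicate numbers of a treatment mark the same animal, so the change can be read per mouse. All 10 genes were higher on day 3 in each of 6 animals. The median day 3 to day 0 ratio over the 10 genes was 14.9, 3.25 and 48.4 in the control animals and 15.6, 12.4 and 24.1 in the adalimumab animals. Control animal 2 had the smallest ratios, from 2.19 for C1qc to 12.3 for Fcgr1. Its day 0 skin was the highest of control day 0 for all 10 genes and its wound the lowest of control day 3 for all 10. The summed level of 10 macrophage markers moved the same way, at 1389 CPM in that day 0 skin against 511 and 260 CPM, and at 3062 CPM in that wound against 8249 and 7876 CPM. Its wound also held more keratinocyte marker RNA (5604 against 1317 and 479 CPM). The part of tissue makeup in these differences was not tested. With the animal as a block, all 10 genes were still called in both treatments.

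After day 3 the levels were lower by value, and few of these differences passed the test. In control wounds 0 of 10 genes were called between day 7 and day 3 by edgeR, which called 3.05% of all genes in either direction. At an unadjusted p under 0.05 by edgeR there were 5 of 10, to which that share does not apply. No share of all genes at that cutoff is given, so the 5 have no background to be read against. The 10 genes followed one another closely, so these are not separate results. DESeq2 called 2 of 10, Fcgr1 and Fcgr2b, and 8.57% of all genes. The median log2 difference was -1.08. Fcgr1 had the largest, -1.54 ± 0.46 (adjusted p = 0.0725), followed by Fcgr2b, -1.27 ± 0.40 (adjusted p = 0.0844). Without control day 3 replicate 2 both were called, at -1.80 (adjusted p = 0.0486) and -1.67 (adjusted p = 0.0179).

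In adalimumab wounds 2 of 10 genes were called lower on day 7 than on day 3, against 3.11% of all genes lower. Fcgr1 measured 27.8, 24.7 and 48.4 CPM on day 7, and Fcgr4 measured 4.54, 9.52 and 17.4 CPM, all below every day 3 library. The highest day 7 value of each gene came from replicate 3, the female library of that group, and the part of sex was not tested. The log2 differences were -2.04 ± 0.47 for Fcgr1 (adjusted p = 0.0206) and -2.08 ± 0.58 for Fcgr4 (adjusted p = 0.0410). Fcgr2b, at 375, 319 and 366 CPM on day 7, differed from day 3 by -0.43 ± 0.39 and was not called. The calls of Fcgr1 and Fcgr4 ended when adalimumab day 3 replicate 1, day 7 replicate 1 or day 7 replicate 2 was left out, with adjusted p from 0.0814 to 0.104 for Fcgr1 and from 0.147 to 0.170 for Fcgr4. The Fcgr4 call also ended without day 3 replicate 3 (adjusted p = 0.0542) and with the replicate number as a block (0.0547), and both ended when only the 2 groups compared were fitted (0.227 and 0.258). From day 7 to day 10, edgeR called 0 of 10 genes and 0% of all genes in either treatment. DESeq2 also called 0 of 10, and 0 of 10 had an unadjusted p under 0.05 by edgeR. The median differences were -0.30 in control and -0.02 in adalimumab.

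Adalimumab and control did not differ for any of the 10 genes at the threshold on any day. The edgeR test called 0 of 10 on days 0, 3, 7 and 10, where it called 0.269%, 0%, 0% and 0% of all genes, and DESeq2 also called 0 of 10 on each day. At an unadjusted p under 0.05 by edgeR there were 3, 1, 0 and 0 genes, to which those shares do not apply. Shares of all genes at that cutoff are not given, so these counts are not read as a result. The median log2 difference was -1.05, -0.30, -0.11 and 0.12. A p that misses the threshold does not show that the treatments acted alike, and the SE of 0.37 to 0.78 leaves wide intervals. In the skin of day 0 all 10 genes were lower by value in adalimumab mice, from -0.64 ± 0.40 for Fcgr2b to -1.62 ± 0.72 for C3ar1, and Fcgr1 was the 1 of 10 whose groups did not overlap, against 5.74% of all tested genes lower without overlap. Without control day 0 replicate 2 these differences shrank, to between -0.40 for Fcgr1 and 0.03 for C1qc.

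On day 3 the largest difference was that of the inhibitory receptor Fcgr2b, -0.86 ± 0.40 (approximate 95% interval -1.64 to -0.09, unadjusted p = 0.0426, adjusted p = 0.281 by edgeR). Its control libraries (1068, 319 and 1206 CPM) lay on both sides of the adalimumab libraries (461 to 487 CPM). Without control day 3 replicate 2 the difference was -1.26 and was called (adjusted p = 0.0437). The activating receptors Fcgr1 and Fcgr4 were higher by value under adalimumab, by 0.22 ± 0.45 (interval -0.66 to 1.11) and 0.70 ± 0.56 (interval -0.40 to 1.80), and Fcgr3 was lower by value, -0.35 ± 0.42. The C1q chains differed by -0.50 ± 0.52, -0.37 ± 0.51 and -0.37 ± 0.54, with intervals from -1.52 to 0.68. On day 7 the 10 differences ran from -0.27 to 0.11. On day 10 C1qa (0.43 ± 0.57) and C1qb (0.34 ± 0.57) were higher by value in both adalimumab libraries than in all 3 controls, and Fcer1g (-0.36 ± 0.42) and C5ar1 (-0.04 ± 0.62) were lower in both. The groups of 2 and 3 libraries did not overlap for 23.1% of all tested genes in the higher and 23.8% in the lower direction, and 2 of 10 each way is near that background. Without the female library, adalimumab day 7 replicate 3, the day 7 count was still 0 of 10. The keratinocyte marker sums on day 10 were 14430 and 18440 CPM in adalimumab against 1147 to 1791 CPM in control. On day 7 they ran from 637 to 12100 CPM in adalimumab and from 764 to 1702 CPM in control. The part of tissue makeup in these comparisons was not tested.

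**Figure D3:**
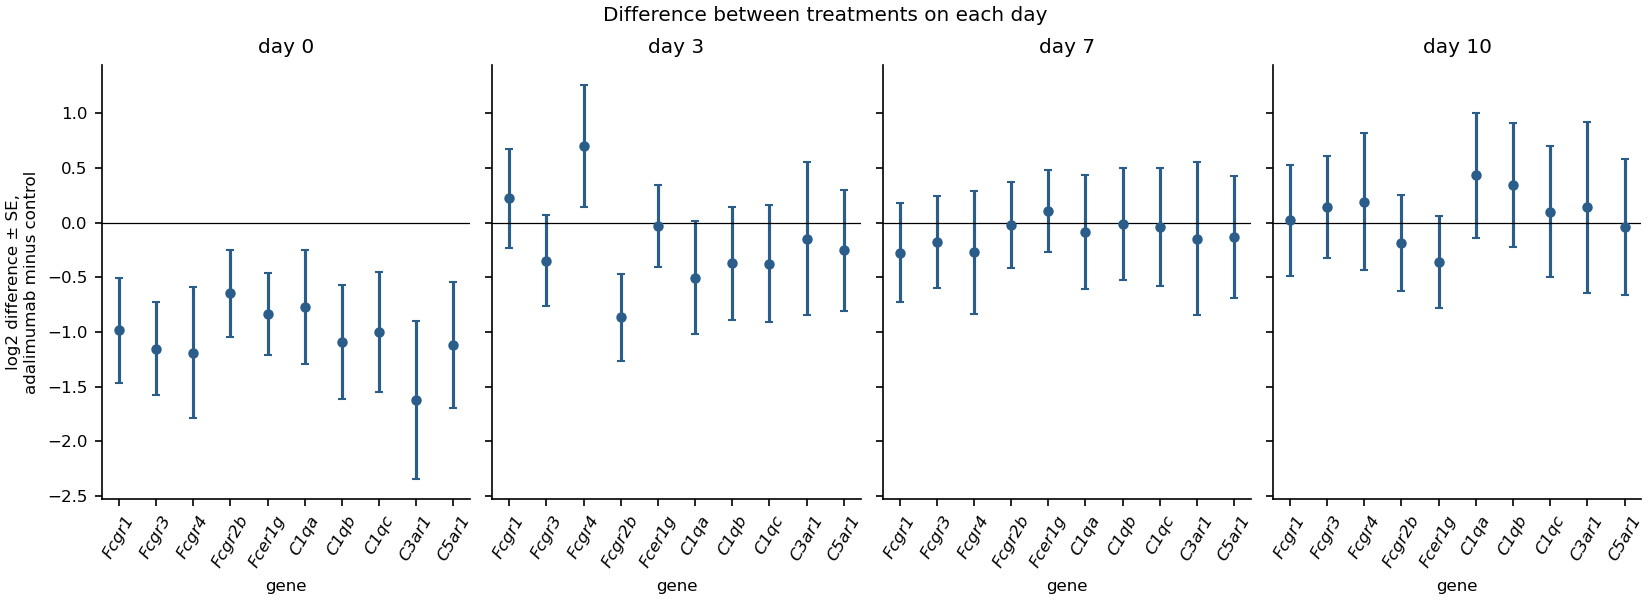
Log2 difference between adalimumab and control with its SE for each gene on each day. The day 0 values lie below 0 for all 10 genes, Fcgr2b is lowest on day 3 (-0.86) and Fcgr4 highest (0.70), and the day 7 values lie between -0.27 and 0.11.

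The change from day 0 was also compared between treatments. For day 3 the test called 0 of 10 genes, against 1.81% of all genes. At an unadjusted p under 0.05 there was 1 gene, to which that share does not apply and for which none at that cutoff is given. That gene was Fcgr4, whose change was larger under adalimumab by 1.89 ± 0.82 (unadjusted p = 0.0339, adjusted p = 0.206 by edgeR, interval 0.28 to 3.50). Without control day 0 replicate 2 the Fcgr4 value was 0.97, and over all single libraries left out it reached 2.62 at most. Fcgr1 followed with 1.21 ± 0.66 (adjusted p = 0.308), and ran from 0.61 without control day 0 replicate 2 to 1.66 without control day 3 replicate 3. For days 7 and 10 the test called 0 of 10 genes and 0% of all genes in each, and 0 of 10 had an unadjusted p under 0.05. DESeq2 called 0 of 10 in these 3 tests. The lower day 0 values of the adalimumab mice enter each of these differences.

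The balance of activating to inhibitory receptors was described as the counts of Fcgr1, Fcgr3 and Fcgr4 together over those of Fcgr2b, with no test. Counts were not divided by length, and the exons of Fcgr2b cover 3810 bases against 2589, 1347 and 1256 for Fcgr1, Fcgr3 and Fcgr4. A ratio below 1 therefore does not mean fewer activating than inhibitory transcripts, and the ratio only compares libraries with one another. In control it was 0.890, 1.06 and 0.700 on day 0, then 0.508, 0.841 and 0.560 on day 3. On days 7 and 10 control libraries ran from 0.525 to 0.692. In adalimumab mice it was 0.766, 0.554 and 0.724 on day 0 and 1.22, 0.783 and 0.901 on day 3, then 0.430 to 0.670 on day 7. The 2 adalimumab libraries of day 10 were at 0.695 and 0.768. The highest wound value of all, 1.22, belonged to adalimumab day 3 replicate 1, which had almost no keratinocyte marker RNA; without it the adalimumab day 3 libraries lay at 0.783 and 0.901 beside a highest control of 0.841. Within C1q, C1qb held the largest share of the summed counts in every library. The C1qc share was lower on day 3 than on day 0 without overlap. It was 26.49% to 29.48% against 29.62% to 34.02% in control, and 28.76% to 29.81% against 30.45% to 33.44% in adalimumab. The C1qb share was higher on day 3 without overlap in adalimumab, 42.49% to 47.37% against 38.22% to 39.65%, and overlapped in control. The 3 shares add up to the whole, so they do not move independently. C1qa held 22.8% to 31.7%, C1qb 37.2% to 47.4% and C1qc 26.5% to 35.6% over all 23 libraries. The summed C1q counts over those of the 4 Fc gamma receptors, also not divided by length, ran from 0.334 in adalimumab day 3 replicate 2 to 1.15 in control day 0 replicate 2.

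**Figure D4:**
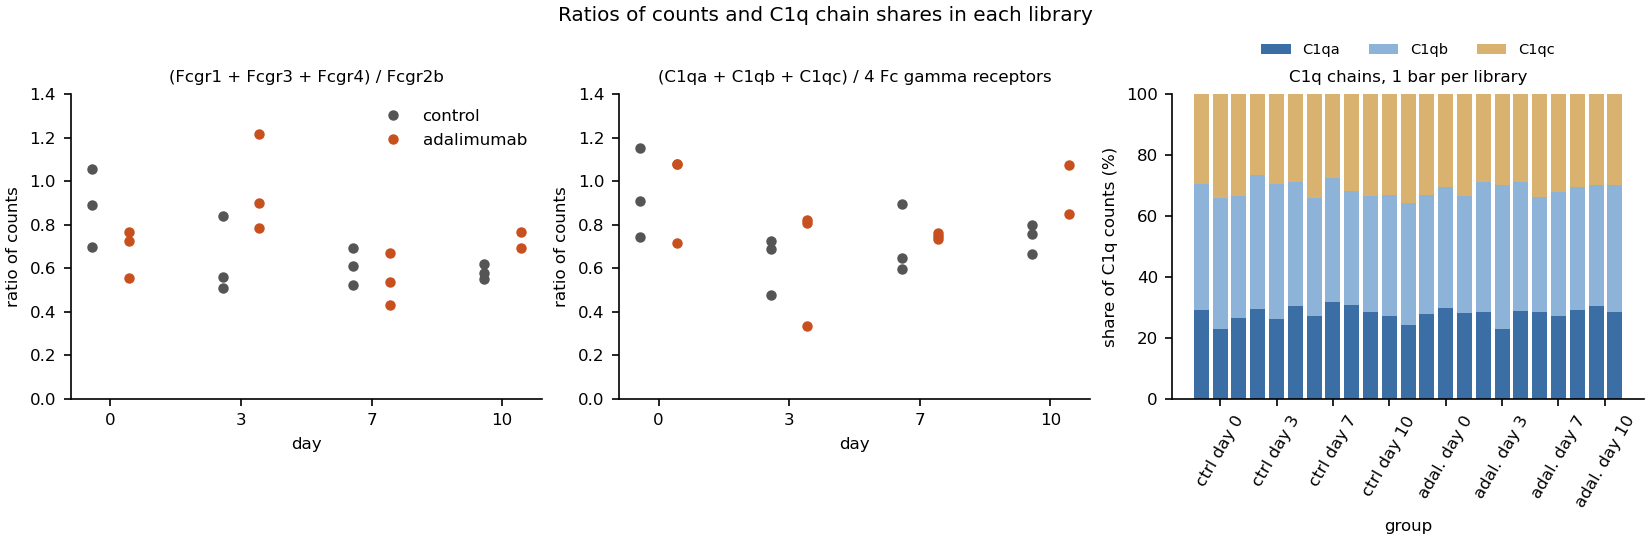
Ratio of activating to inhibitory receptor counts (left), ratio of C1q to Fc gamma receptor counts (middle) and share of each chain in the C1q counts (right), 1 point or bar per library. Counts are not divided by length. The activating to inhibitory ratio reaches 1.22 in adalimumab day 3, one library of that group has the lowest C1q ratio (0.334), and C1qb has the largest chain share in every library.

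Per length of transcript the genes fell into 2 tiers. In control wounds of day 3 the mean level per kilobase of exon was 322 ± 155 CPM for C1qb (SD, n = 3), 322 ± 143 for Fcer1g, 260 ± 109 for Fcgr3, 236 ± 138 for C1qa, 227 ± 125 for Fcgr2b and 195 ± 105 for C1qc. Neighbours among these 6 differed by less than their SD. C3ar1 followed at 69.6 ± 21.3, Fcgr1 at 45.7 ± 21.9, C5ar1 at 42.0 ± 14.6 and Fcgr4 at 21.8 ± 15.0 CPM per kilobase. In control skin of day 0 Fcer1g (33.6 ± 22.0) and C1qb (33.2 ± 29.6) led the order and Fcgr1 (1.34 ± 0.80) and Fcgr4 (1.42 ± 1.20) closed it. The receptors with the lowest level per length on day 0, Fcgr1 and Fcgr4, had the largest and the third largest log2 differences in control on day 3. The day 0 level is itself subtracted in that difference, so a low start and a large difference are not independent.

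Signalling partners of the receptors rose with them on day 3. Of 12 genes for ITAM signalling, 11 were higher in control and 12 in adalimumab, with median log2 differences of 2.31 and 3.21. They included Syk, the kinase that docks on phosphorylated ITAMs (2.05 ± 0.34 in control), and Fgr, a Src family kinase of myeloid cells (2.95 ± 0.42 in control and 3.80 ± 0.43 in adalimumab). All 4 genes of the inhibitory arm were higher in both treatments, among them Inpp5d, the phosphatase that Fcgr2b recruits (2.57 ± 0.42 and 3.45 ± 0.43), and Dok1, an adaptor (2.31 ± 0.28 and 2.14 ± 0.28). Of 11 tested genes for other Fc receptors, 2 were higher and 1 lower in control, where 17.5% and 17.1% of all tested genes were higher and lower, so that this count is near the background. In adalimumab 4 of the 11 were higher, against 11.9% of all tested genes. Fcgrt, the neonatal receptor that recycles IgG, was higher in control by 2.14 ± 0.50 (adjusted p = 0.00369), which was lost with the animal as a block (adjusted p = 0.0538), as were the control calls of Fcrlb (3.52) and Fcer2a (-3.04), at adjusted p = 0.0518 and 0.0941. In adalimumab the calls of Fcrla (2.35) and Fcrl1 (3.10), receptor-like genes of B cells, were lost in the same way (adjusted p = 0.0818 and 0.132). Of 7 other complement receptors, 4 were higher and 1 lower in control and 5 higher in adalimumab. Without single libraries the higher count ran from 2 to 5 in control and from 5 to 6 in adalimumab. Itgam, the alpha chain of complement receptor 3, led these receptors with 4.10 ± 0.43 and 5.17 ± 0.45. Spi1, which encodes PU.1, was higher by 2.15 ± 0.56 in control and 3.08 ± 0.58 in adalimumab.

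Soluble complement genes were called in both directions in control, where 17.5% of all tested genes were higher and 17.1% lower. Under adalimumab 11.9% of all tested genes were higher and 9.54% lower. Among 6 classical pathway enzymes and substrates, C1ra, a protease that C1q activates, was the 1 gene higher in each treatment (1.22 ± 0.45 and 1.60 ± 0.46), and C2 was lower in control (-1.10 ± 0.36). None of these 3 calls held with the animal as a block (adjusted p = 0.185, 0.132 and 0.107). Among 6 genes, 1 called in a direction is near the share of all genes. In the alternative pathway Cfp, the stabiliser properdin made by myeloid cells, was higher (3.17 ± 0.35 and 3.66 ± 0.36), while Cfd, a protease made by fat cells, was lower in control (-5.15 ± 1.17). Of 5 tested genes of the terminal pathway, 0 were higher and 2 lower in control, C7 (-3.56 ± 1.09) and C8g (-0.93 ± 0.28), the second lost with the animal as a block (adjusted p = 0.125). In adalimumab the median of these 5 was -0.19. Among 7 regulators 3 were lower in control, Vtn (-2.89 ± 0.63), Cd59a (-2.94 ± 0.76) and Clu (-2.74 ± 0.82). Single libraries ended some of these calls: C7 without control day 0 replicate 2, day 3 replicate 1 or day 3 replicate 3 (adjusted p = 0.0620, 0.0614 and 0.0754), C8g without day 0 or day 3 replicate 1 (0.0902 and 0.0801) and Clu without day 3 replicate 1 or 3 (0.0731 and 0.0684). Transcripts of the IgG heavy chain genes were nearly absent. IgG protein, the ligand of the receptors, was not measured, so these levels do not tell how much ligand the tissue held. Ighg1 was at most 0.413 CPM and at 0 in 12 of 23 libraries, Ighg2b at most 0.245 CPM and at 0 in 14, Ighg2c at most 0.310 CPM and at 0 in 13, and Ighg3 at most 0.296 CPM and at 0 in 18. Ighg1 was called lower on day 3 in both treatments (17.1% and 9.54% of all tested genes were lower), and no fold is given at these levels. The adalimumab call of Ighg1 ended without day 0 replicate 2 or 3 or day 3 replicate 2 or 3 (adjusted p from 0.0700 to 0.0920) and with the animal as a block (0.0835). Igkc, a light chain gene, was called higher in control on day 3, and that call ended without any 1 of the day 0 replicates or day 3 replicate 2 (adjusted p from 0.0981 to 0.987) and with the animal as a block (0.487).

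**Figure D5:**
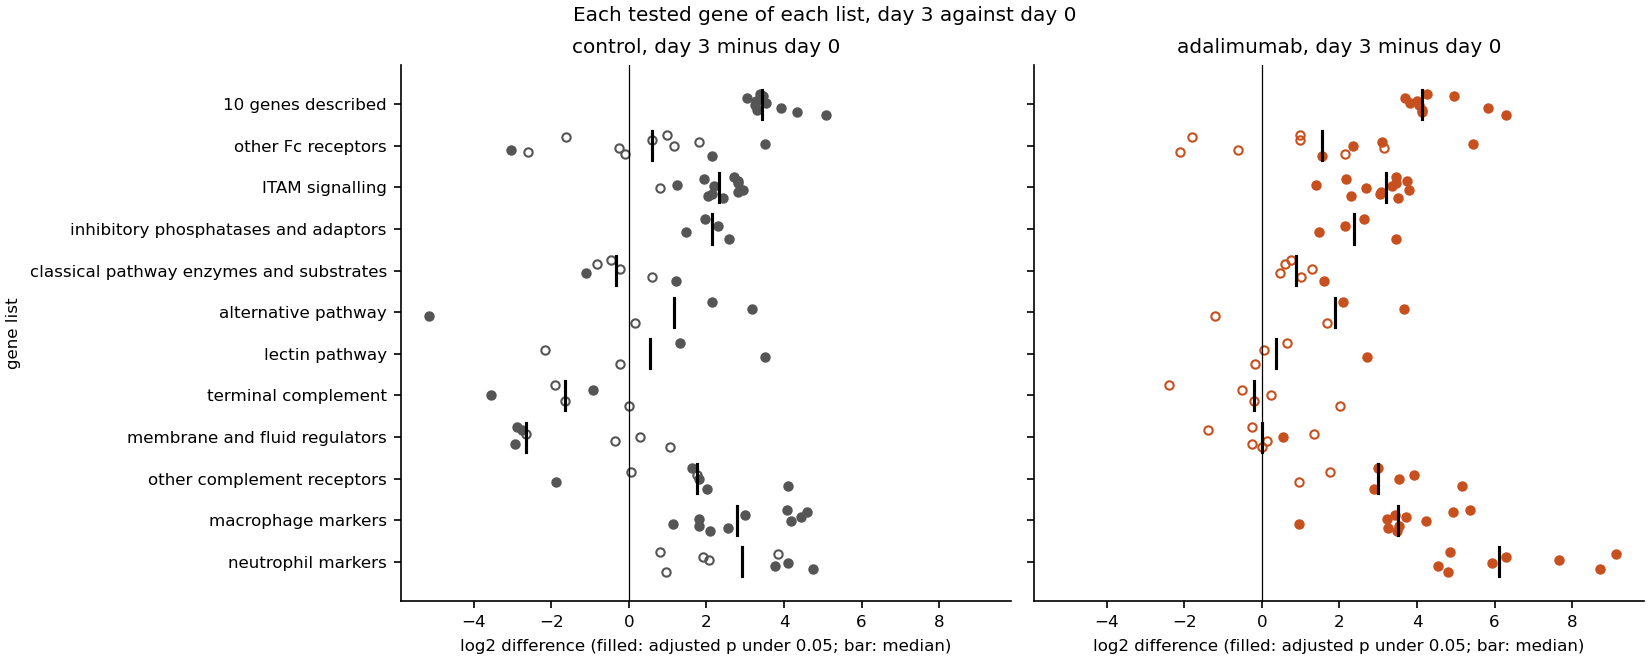
Log2 difference between day 3 and day 0 of each tested gene, by list, in control (left) and adalimumab (right); filled points passed an adjusted p of 0.05 and black bars are medians. The 10 genes described (medians 3.42 and 4.12) and the ITAM signalling genes (2.31 and 3.21) lie to the right of 0, while the medians are -0.34 and 0.88 for the classical pathway and -1.66 and -0.19 for terminal complement.

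Markers of several cell types moved as well, while 17.5% of all tested genes were higher on day 3 in control and 11.9% in adalimumab. All 10 macrophage markers were higher on day 3 in both treatments, and 6 of 10 in each with the animal as a block. Their summed level ran from 260 to 1389 CPM in control on day 0 and from 3062 to 8249 CPM on day 3, and from 219 to 471 CPM and 2144 to 4806 CPM in adalimumab. Without control day 0 replicate 3 or control day 3 replicate 3 the control count was 6, and without adalimumab day 0 replicates 2 and 3 the adalimumab count was 4. Neutrophil markers were higher for 3 of 8 genes in control and 8 of 8 in adalimumab (4 of 8 with the animal as a block, and 2 of 8 without adalimumab day 0 replicates 2 and 3). Their sums ran from 24.3 to 50.3 CPM on day 0 and 67.5 to 244 CPM on day 3 in control, and from 17.6 to 35.6 CPM and 202 to 2223 CPM in adalimumab. Monocyte markers were higher for 6 of 6 genes in control and 5 of 6 in adalimumab (3 with the animal as a block, and 2 without adalimumab day 0 replicates 2 and 3). Their sums ran from 84.3 to 283 CPM on day 0 and from 1303 to 3396 CPM on day 3 in control, and from 120 to 374 CPM and 975 to 1969 CPM in adalimumab. The monocyte list holds Fn1 (fibronectin) and Vcan (versican), with highest levels of 3296 and 607 CPM in any library. For Ly6c2, Ccr2, Chil3 and Plac8 the highest were 56.4, 812, 431 and 275 CPM. The monocyte sums can thus rest largely on Fn1, and how much of them came from monocytes was not tested. Fibroblast markers were higher for 6 of 6 genes in control and 2 of 6 in adalimumab, with 0 in adalimumab when the animal was a block or day 0 replicate 3 was left out, 1 without day 0 replicate 1 and 4 by DESeq2. Their sums ran from 1153 to 4752 CPM and 11220 to 24390 CPM in control, and from 2668 to 5697 CPM and 7645 to 14480 CPM in adalimumab. Keratinocyte markers were lower for 2 of 6 genes in control and 1 of 6 in adalimumab, against 17.1% and 9.54% of all tested genes. Without single libraries these counts ran from 1 to 3 and from 0 to 1. The keratinocyte sums ran from 6806 to 9191 CPM on day 0 and 479 to 5604 CPM on day 3 in control. In adalimumab they ran from 6227 to 10060 CPM and 10.3 to 5645 CPM. The lists for mast, B and plasma, T and NK, dendritic and Langerhans cells and endothelium held at most 2 called genes per treatment. None of the 10 macrophage or 6 monocyte markers was at 0 in any library, while 3 of the 8 neutrophil markers were at 0 in at least 1 library. The part of cell numbers in the rise of the 10 genes was not tested.

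Across the 23 libraries the 10 genes followed one another closely, which is given as a description because libraries of one day share their tissue state. Pearson r of log2 CPM ran from 0.932 (Fcgr2b with Fcgr4) to 0.994 (C1qb with C1qc) over 45 pairs, with 0.992 or more for the 3 C1q pairs. Among 12887 other genes, those most like the mean of the C1q chains were Ms4a6b (0.989), Stab1 (0.988), Unc93b1 (0.987), Ncf1 (0.986) and P2ry6 (0.985). Those most like the mean of the 4 Fc gamma receptors were Ms4a6d (0.992), Lgmn (0.991), Cd53 (0.988), Cyba (0.988) and Slfn2 (0.988). The 2 sets shared 0 genes.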

How the data were processed

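Stranded total RNA libraries (SMARTer Pico v2) were sequenced as single reads of 50 bases, per the labels. The authors deposited whole-number counts per gene for 23 libraries. The submitters' processing notes name STAR (no version) and GRCm39, and the read counter, its annotation and its strand setting were not given in the sources used here. Groups came from the labels, with replicates from 17 mice, and 0 sample columns were unmapped.

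The counts were scaled by TMM and filtered with filterByExpr (at least 10 counts, 15 in total). The quasi-likelihood functions of edgeR 4.0.16 (R 4.3.3) fitted all 23 libraries with a mean for each group. Adjusted p-values follow Benjamini and Hochberg over the 23083 genes left, called under 0.05. A ± follows log2 differences with their SE and levels with their SD. The SE was derived from the log2 difference and the F statistic of its test. Intervals from it are approximate and can disagree with p. DESeq2 1.42.0, RLE scaling, other filters, the compared groups alone, replicate blocks and leaving out libraries were tried as alternatives; 2 were added after seeing the data. The 10 genes and all lists were chosen with earlier results of these data known. From other lists at most 3 genes per comparison were named, by adjusted p, and the 5 most alike by Pearson r.

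On days 0 and 3 the count columns of a treatment share animal numbers, so same-numbered libraries were read as 1 mouse. Their deviations from the group mean correlated at -0.08, -0.04 and -0.07 for the control mice, against 0.26, -0.11 and 0.26 for the adalimumab mice. Promoter windows are from RefSeq (GRCm38.p6). Exon lengths and shared 50-base windows are from GENCODE on GRCm38, another build than that of the authors.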

Additional observations from a re-analysis of the deposited data

How the results depend on the processing

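Of 770 alternative values of the 60 differences from day 0, 746 kept direction and side of the threshold, 24 kept direction only and 0 reversed. Without adalimumab day 0 replicates 2 and 3, chosen after seeing the data, 6, 6 and 3 of 10 genes were called in adalimumab on days 3, 7 and 10 instead of 10. Leaving out single libraries gave 0 to 1 calls between treatments on day 3 and 0 to 2 from day 3 to day 7 in each treatment. For that step DESeq2 called 2 in control. In adalimumab, no filter left 1, the compared groups alone 0, and leaving out day 3 replicates 1 and 2 (added) 0. The cause was not tested.

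With the replicate number or the animal as a replicate block, 19 of 20 member counts were unchanged in call; the count from day 3 to day 7 in adalimumab was 1 instead of 2.

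Between treatments 47 of 500 alternative values of 40 differences changed sign. Without single libraries, day 0 C1qc ran from -1.45 to 0.027. Day 3 ranges were Fcgr1 -0.18 to 0.67, Fcer1g -0.28 to 0.38, C1qa -0.85 to 0.033, C1qb -0.67 to 0.037, C1qc -0.68 to 0.13, C3ar1 -0.74 to 0.30 and C5ar1 -0.61 to 0.092. Day 7 ranges were Fcgr1 -0.60 to 0.0018, Fcgr2b -0.12 to 0.091, Fcgr4 -0.81 to 0.095, Fcer1g -0.061 to 0.26, C1qa -0.27 to 0.17, C1qb -0.21 to 0.34, C1qc -0.31 to 0.39, C3ar1 -0.54 to 0.40 and C5ar1 -0.50 to 0.56. Day 10 ranges were Fcgr1 -0.17 to 0.27, Fcgr2b -0.42 to 0.028, Fcgr3 -0.033 to 0.32 and C3ar1 -0.032 to 0.41. For the day 3 change compared between treatments they were Fcgr2b -0.79 to 0.13, C1qa -0.48 to 0.80, C1qb -0.28 to 1.18, C1qc -0.42 to 1.13 and C5ar1 -0.060 to 1.28, and C1qa was -0.038 with the animal as replicate block and -0.024 without adalimumab day 0 replicates 2 and 3. Other sign changes were close to 0. On day 3 Fcer1g was 0.020 with the compared groups alone and C3ar1 0.018 without adalimumab day 3 replicates 1 and 2. On day 7 Fcgr2b was 0.0016 with DESeq2 or RLE, 0.0042 with no filter, 0.0014 with a stricter filter and 0.019 with the compared groups alone. C1qb was 0.0098 with DESeq2 or RLE, 0.011 with no filter, 0.012 with a stricter one, 0.0094 with the replicate block and 0.024 with the compared groups alone.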
